A study of Mus musculus with 64 samples.

Results

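The comparison described here was that of the hypothalamus of mice killed 3 h after a single dose of psilocybin with the hypothalamus of mice killed 3 h after saline. Its libraries were taken by their labels (tissue, treatment and time), and those with fewer than 1000000 counts were left out. This removed 1 saline library, saline 2, and left 8 psilocybin and 7 saline libraries, 15 of the 64 in the series.

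All mice were chow-fed male C57BL/6J, an inbred wild-type strain with no transgene or deletion, and they were housed in groups. They were 10 weeks old at treatment and received psilocybin at 3 mg/kg or isotonic saline by intraperitoneal injection. The other groups of the series were the prefrontal cortex (PFC) at 3 h and both regions at 4 weeks, and their libraries entered the same model, so they share in its filter, scaling and spread, while their own responses are given only where they are compared. The whole hypothalamus was taken as 1 piece, so a library averages over all of its nuclei, and fewer cells of a type and less RNA per cell cannot be told apart. Each library bears a cage number and an extraction pool, A or B for the hypothalamus and C or D for the PFC. The pool was a term of every model except where stated.

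Psilocybin is converted in the body to psilocin, which acts on serotonin receptors, the 5-HT2A receptor foremost in its psychedelic action. The hypothalamus holds the neurons that set food intake, body temperature, daily rhythm and the release of pituitary hormones, each known by the peptide it makes. Neurons that have been strongly activated switch on immediate early genes, which encode transcription factors and synaptic proteins and whose RNA is short-lived. Serotonergic drugs can also raise corticosterone, whose receptor switches on a separate set of genes in neurons and glia, among them Fkbp5 and Sgk1. In separate mice given the same dose, the authors reported no significant change of plasma corticosterone.

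Total counts ran from 10374878 to 26689577 in the psilocybin libraries and from 12793712 to 23299770 in the saline libraries. Levels are given as CPM, counts scaled to a library of 1000000, scaled by the TMM normalization factors of edgeR. No 2 libraries of a group agreed within sampling noise (lowest chi-square per degree of freedom 3.846 over 49 pairs). Hypothalamic genes were present in every library, though unevenly. Pmch was at 25.0 CPM or more and Avp at 65.5 CPM or more, while Hcrt fell to 0.91 CPM in psilocybin 6.

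Markers of neighbouring tissue were uneven among libraries, and several libraries stood apart. Summed over 11 liver genes, psilocybin 5 held 4279 CPM, whereas the other 7 psilocybin libraries held 2.69 to 20.3 CPM and the saline libraries 2.25 to 213 CPM. That library alone lay at 50.6 on the first principal component, against -7.68 to 11.7 for the other 14 libraries. Summed over 7 genes of the habenula, which borders the thalamus outside the hypothalamus, psilocybin 8 held 321 CPM, psilocybin 5 held 192 CPM, psilocybin 3 held 119 CPM and psilocybin 4 held 91.7 CPM. The other 4 psilocybin libraries held 63.2 to 74.5 CPM and the 7 saline libraries 66.7 to 72.7 CPM. Striatal markers were highest in saline 6, at 785 CPM against 295 to 489 CPM elsewhere. Pituitary markers summed to 78.0 CPM in psilocybin 2 and to 2.66 to 16.7 CPM in the others. Markers of neurons (5465 to 6063 CPM), astrocytes, oligodendrocytes and microglia overlapped between the groups. The habenula and liver lists were drawn up after the values had been seen, so how their sums split between treatments is a description only.

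**Figure D1:**
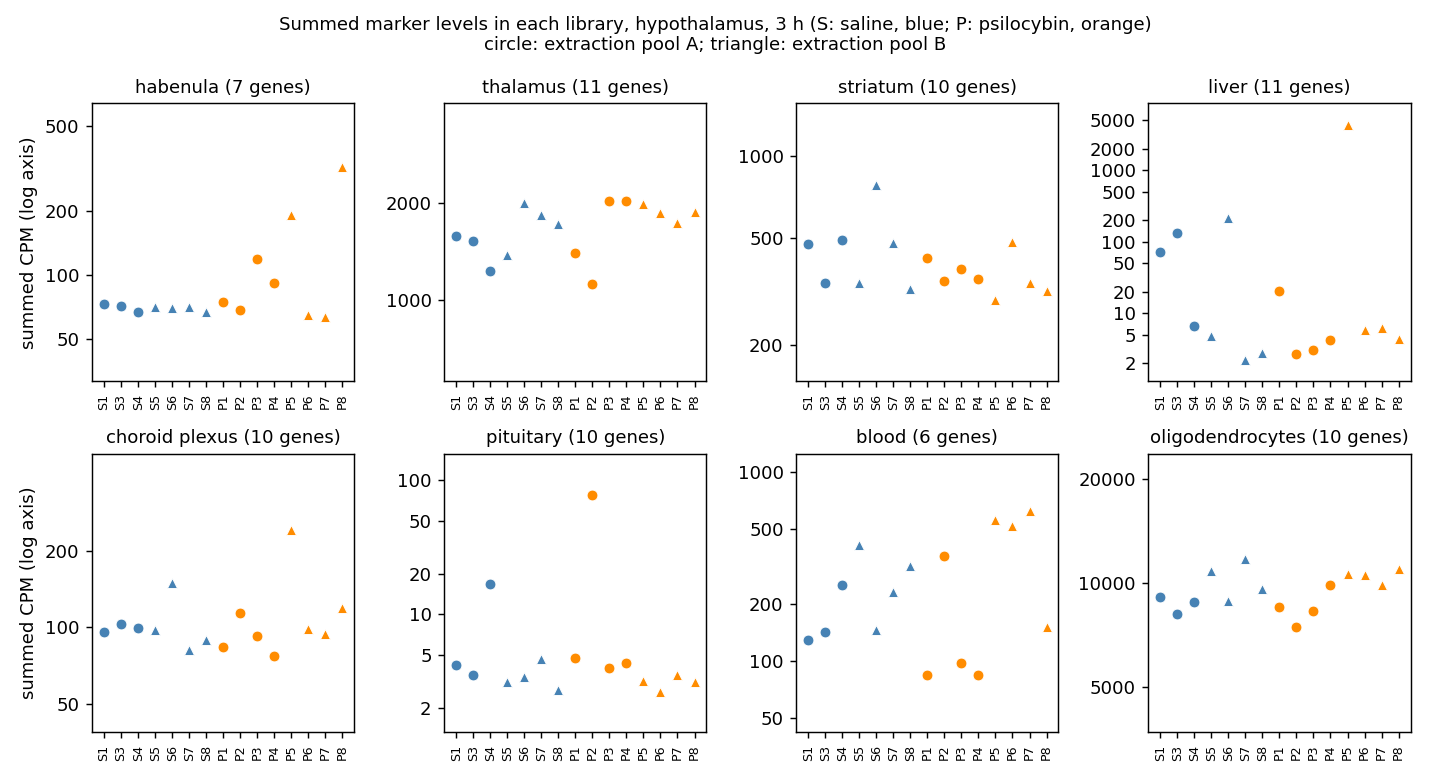
Summed level (CPM, log axis) of markers of 8 tissues or cell types in each of the 15 libraries, saline in blue and psilocybin in orange, with circles for extraction pool A and triangles for pool B. Liver genes reach 4279 CPM in psilocybin 5 alone, and habenula genes exceed 90 CPM in psilocybin 3, 4, 5 and 8, whereas all saline libraries lie between 66.7 and 72.7 CPM.

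No gene differed between psilocybin and saline at an adjusted p under 0.05. Of 18971 genes tested with the quasi-likelihood test of edgeR, 0 were called (0% of those tested), and the smallest Benjamini-Hochberg adjusted p was 1. At an unadjusted p under 0.05 there were 337 genes, 1.78% of those tested, of which 195 had a positive and 142 a negative log2 fold change (1.03% and 0.749%). voom with limma and DESeq2 likewise called 0 genes, with 1086 and 359 genes at an unadjusted p under 0.05. The fit of the 2 groups alone also called 0, with 822 of 16738 genes (4.91%) at an unadjusted p under 0.05, 348 higher (2.08%) and 474 lower (2.83%). With no difference at all, a share of about 0.05 would pass that cut. The main fit lay below that share, and the fit of the 2 groups alone lay near it.

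The fold changes were centred on 0, with 9408 genes higher and 9563 lower after psilocybin and a median log2 fold change of -0.0008. The width of the intervals depended on the level of the gene. Among the 10421 genes at 10 CPM or more, the median standard error was 0.099 on the log2 scale, and 97.29% had a 95% confidence interval inside a 1.5-fold change in either direction. The share was 59.33% for the 4908 genes between 1 and 10 CPM and 1.623% for the 3635 genes under 1 CPM. Inside a 2-fold change lay 99.41%, 91.93% and 43.38% of the genes at these 3 levels, from high to low.

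The groups did not overlap in CPM for 9 genes (0.0474% of those tested), and for all 9 the psilocybin libraries were the lower ones. Besides Egr4, described next, they included the homeodomain factor Pknox1, at 11.28 to 12.62 CPM after psilocybin and 12.64 to 15.15 CPM after saline (log2 fold change -0.19, SE 0.066). The potassium channel gene Kcnk13 lay at 10.1 to 11.8 CPM after psilocybin and 11.9 to 14.4 CPM after saline (log2 fold change -0.25, SE 0.12). The orphan receptor gene Gpr6, an enriched transcript of striatal neurons, lay at 2.58 to 4.59 CPM and 4.61 to 10.2 CPM, with a log2 fold change of -0.80 (SE 0.55). The other 5 were BC025920, Gm2693, Twist2, Kremen2 and 2310033P09Rik. The gap between the groups was narrow for most of them, as these ranges show.

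Egr4, an immediate early zinc finger factor of the Egr family (chr6:85511121-85513589 in GRCm38, minus strand), stood farthest apart among the genes of neuronal activity. In the psilocybin libraries 1 to 8 it was at 0.64, 0.45, 0.50, 0.87, 0.62, 0.66, 0.68 and 0.66 CPM. In the saline libraries 1 and 3 to 8 it was at 1.55, 1.05, 1.03, 1.11, 2.37, 1.06 and 1.12 CPM. Every psilocybin library thus lay below every saline library, in both pools, with saline 6 far above the rest of its group. The log2 fold change was -1.03 (SE 0.28, 95% confidence interval -1.59 to -0.46), and the adjusted p of the edgeR test was 1. It was -0.85 in pool A alone and -1.14 in pool B alone, and -0.98 without psilocybin 5 and 8. The gene was rare, with 5 to 58 counts per library, which limits the precision of each value.

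The 250 bases upstream of the start of Egr4 are shown with those of Fos and Nr4a1, since these promoters carry the same TGACG motif, the core of the cAMP response element, while the genes differ in how their groups lay. They come from RefSeq on GRCm38.p6 and read 5′ to 3′ along the gene, with TGACG, on either strand, in capitals. The window of Nr4a1 precedes its RefSeq start, which lies inside the span of the gene in the counted annotation.
Egr4, chr6:85513590-85513839, minus strand: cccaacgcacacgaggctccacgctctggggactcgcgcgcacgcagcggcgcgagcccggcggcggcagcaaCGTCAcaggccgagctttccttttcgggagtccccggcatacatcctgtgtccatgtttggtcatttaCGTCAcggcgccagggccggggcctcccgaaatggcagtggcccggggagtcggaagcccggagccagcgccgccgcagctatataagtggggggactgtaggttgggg
Fos, chr12:85473640-85473889, plus strand: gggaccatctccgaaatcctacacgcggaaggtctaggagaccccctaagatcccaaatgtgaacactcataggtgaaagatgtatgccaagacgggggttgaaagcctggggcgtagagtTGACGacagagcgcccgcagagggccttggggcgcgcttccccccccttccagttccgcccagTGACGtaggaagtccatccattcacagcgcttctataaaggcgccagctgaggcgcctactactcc
Nr4a1, chr15:101266596-101266845, plus strand: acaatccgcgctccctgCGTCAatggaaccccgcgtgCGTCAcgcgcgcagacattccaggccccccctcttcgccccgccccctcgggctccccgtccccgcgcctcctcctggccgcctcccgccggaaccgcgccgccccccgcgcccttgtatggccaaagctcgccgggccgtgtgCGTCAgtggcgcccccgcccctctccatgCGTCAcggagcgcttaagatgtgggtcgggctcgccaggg
TGACG occurs 2 times in the Egr4 window, 2 times in that of Fos and 4 times in that of Nr4a1. Of the 22 listed immediate early factors, 18 had an entry, and 17 of their 24 windows (70.8%) held the motif, against 17.8% of all 32851 windows of this length. A match describes the letters and not a bound site.

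The other immediate early factors did not share the separation seen for Egr4. Of the 22 listed, all tested, 8 had a positive and 14 a negative log2 fold change, with a median of -0.05 against -0.0008 over all genes, and Egr4 was the only member at an unadjusted p under 0.05 (0.749% of all genes were lower at that level). The median was -0.11 without psilocybin 5, -0.09 without saline 3 and between -0.03 and -0.07 without any other single library. Without psilocybin 5 and 8 together it was -0.16, with 3 members higher and 19 lower. Fos, the classical marker of recent firing, was at 8.18 to 19.5 CPM after psilocybin (median 12.5) and 7.38 to 16.2 CPM after saline (median 11.4). The groups overlapped throughout, and the log2 fold change was 0.11 (SE 0.37). It was -0.10 without psilocybin 5, the library with liver RNA and the highest in Fos. Without any other single psilocybin library it was 0.10 to 0.19. In pool A alone, which lacks psilocybin 5, it was 0.14, and in pool B alone 0.15, so its direction depended on the libraries used.

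Egr1, a zinc finger factor of the same family as Egr4, was at 19.7 to 43.1 CPM after psilocybin (median 31.0) and 31.7 to 45.4 CPM after saline (median 33.2). Of the psilocybin libraries, 4 lay below the lowest saline library and 4 within the saline range, and the log2 fold change was -0.22 (SE 0.22). Egr3 was at 3.33 to 9.76 CPM (median 5.35) and 3.58 to 14.6 CPM (median 7.55), with a log2 fold change of -0.45 (SE 0.32). The nuclear receptor gene Nr4a1 overlapped between the groups, at medians of 12.99 and 13.45 CPM (log2 fold change -0.10, SE 0.21). Npas4, a factor induced by calcium entry, also overlapped, with medians of 3.94 and 4.27 CPM. Junb, a partner of Fos, was at 4.37 to 13.9 CPM after psilocybin (median 6.24) and 7.04 to 10.8 CPM after saline (median 8.14). Of its psilocybin libraries, 5 lay below the saline range and psilocybin 5 lay above it, and the log2 fold change was -0.23 (SE 0.30).

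Among 26 activity-induced effectors and feedback inhibitors, 14 were higher and 12 lower, with a median of 0.004. Arc, which removes AMPA receptors from the synapse, was at 12.1 to 19.9 CPM after psilocybin (median 17.4) and 17.3 to 24.4 CPM after saline (median 19.8), and its log2 fold change was -0.22 (SE 0.40). Nrn1, a membrane-anchored promoter of neurite growth, was the single member at an unadjusted p under 0.05 (log2 fold change 0.30, SE 0.14), a level reached by 1.03% of all genes in that direction. Its highest libraries were psilocybin 5 and 8, and without them the log2 fold change was 0.17, with 0 members at that level. It overlaps Fars2 on the opposite strand, whose reads the counting may not have kept apart. The secreted precursor Vgf was at 115 to 224 CPM after psilocybin and 190 to 222 CPM after saline (log2 fold change -0.32, SE 0.17). Bdnf, at medians of 18.2 and 18.7 CPM, had an interval from -0.16 to 0.21, and the phosphatase gene Dusp1 had a log2 fold change of 0.0057 (SE 0.20).

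**Figure D2:**
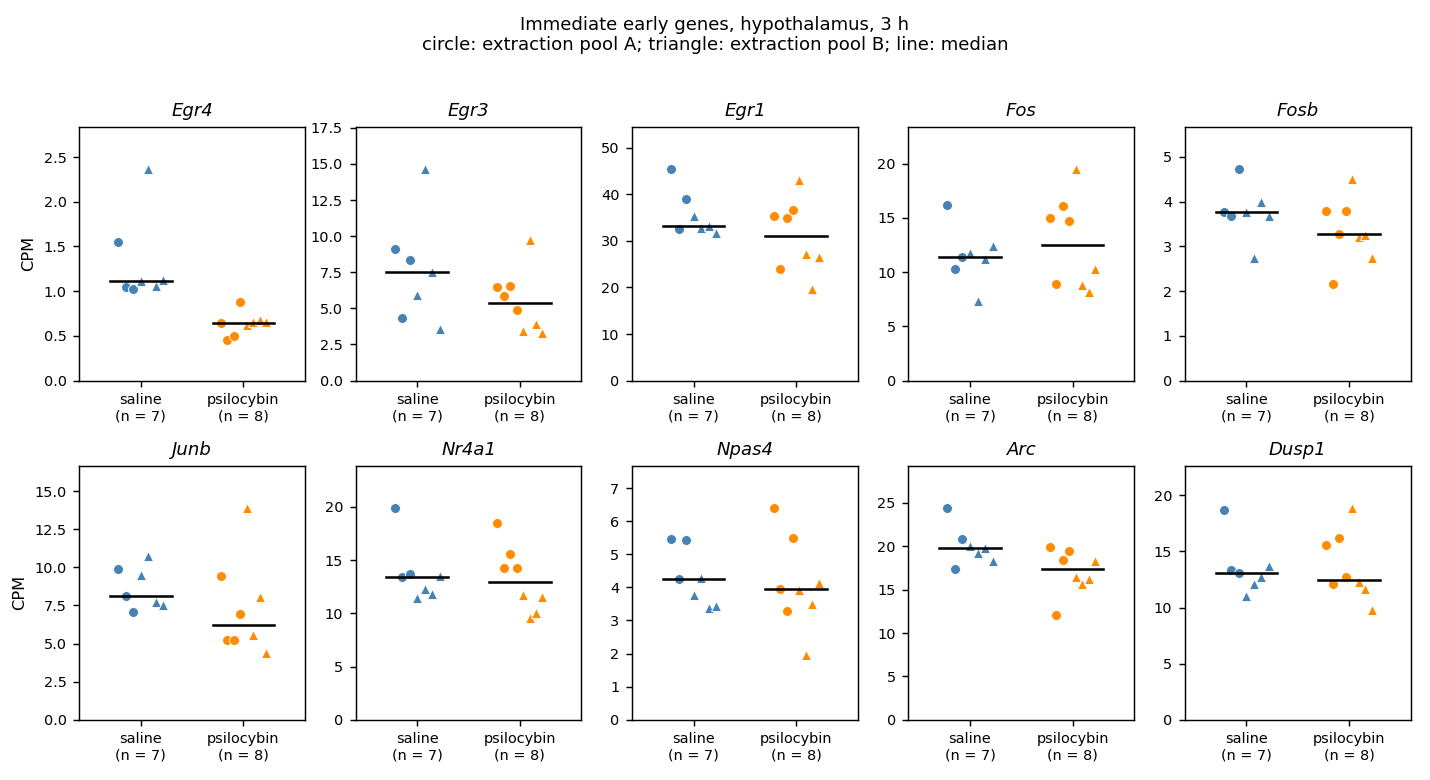
CPM of 10 immediate early and activity-induced genes in each library, with saline in blue (n = 7) and psilocybin in orange (n = 8), circles for extraction pool A, triangles for pool B and a line at the median of the group. The psilocybin libraries lie at 0.45 to 0.87 CPM for Egr4, below all saline libraries at 1.03 to 2.37 CPM, whereas the groups overlap for the other 9 genes.

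Fkbp5 was higher after psilocybin in the fit and in all 29 other settings tried, though it was called in none. It encodes a co-chaperone that holds back the glucocorticoid receptor and is itself induced by that receptor (chr17:28399094-28517524, minus strand). In the psilocybin libraries 1 to 8 it was at 47.9, 57.5, 50.2, 54.8, 61.4, 59.5, 60.5 and 52.1 CPM. In the saline libraries 1 and 3 to 8 it was at 33.4, 41.9, 46.5, 41.6, 39.9, 55.5 and 49.2 CPM. The lowest psilocybin library lay above 5 of 7 saline libraries, and the 2 saline libraries within the psilocybin range, 7 and 8, were both of pool B. The log2 fold change was 0.34 (SE 0.11, 95% confidence interval 0.12 to 0.56), with an adjusted p of 1 in edgeR. It was 0.38 in pool A alone and 0.33 in pool B alone, and it stayed between 0.28 and 0.40 over those settings, with the smallest adjusted p, 0.36, given by voom. Small genes within the span of Fkbp5 lie on both strands, and how far they share its reads was not tested.

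The list of glucocorticoid receptors and target genes as a whole did not move in 1 direction. Of its 22 members, 12 were higher and 10 lower, with a median of 0.04, and 2 higher and 1 lower member were at an unadjusted p under 0.05 (1.03% and 0.749% over all genes). The median was -0.01 without psilocybin 5, -0.0027 without saline 1 and -0.0039 without saline 6. The members at that level were Fkbp5, the cell cycle inhibitor Cdkn1a and the mTORC1 inhibitor Ddit4. Cdkn1a was at 17.7 to 26.7 CPM after psilocybin (median 21.1) and 11.3 to 29.6 CPM after saline (median 17.6), a log2 fold change of 0.33 (SE 0.15). Ddit4 was at 29.9 to 42.9 CPM (median 35.3) and 34.8 to 48.8 CPM (median 44.3), a log2 fold change of -0.24 (SE 0.12). The receptor genes Nr3c1 and Nr3c2 had log2 fold changes of -0.01 (SE 0.11) and -0.09 (SE 0.11).

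Saline 7 was high in several targets and moved the value of Plin4 the most among those named here. The lipid droplet gene Plin4 was at 16.2 to 22.6 CPM in the psilocybin libraries, and in the saline libraries 1 and 3 to 8 it was at 7.17, 9.85, 13.5, 6.49, 4.81, 43.9 and 11.5 CPM. All saline libraries except saline 7 thus lay below the lowest psilocybin library. The log2 fold change of Plin4 was 0.58 with all libraries (SE 0.31) and 1.17 without saline 7 (SE 0.28), with an adjusted p of 1 in both edgeR fits. Saline 7 was also the highest saline library for Fkbp5, for Cdkn1a, at 29.6 CPM, for the sulfotransferase gene Sult1a1, at 14.5 CPM, and for the zinc finger factor Zbtb16, at 35.6 CPM. Without it the log2 fold change went from 0.34 to 0.40 for Fkbp5, from 0.33 to 0.48 for Cdkn1a, from 0.42 to 0.55 for Sult1a1 and from 0.23 to 0.40 for Zbtb16. In Sult1a1 psilocybin 5, the library with liver RNA, also stood apart, at 23.6 CPM against 8.83 to 13.7 CPM in the other psilocybin libraries. Without saline 7, 14 of the 22 members were higher and 8 lower, with 4 higher members (Fkbp5, Cdkn1a, Plin4 and Sult1a1) and 1 lower member (Ddit4) at an unadjusted p under 0.05. These counts were drawn up after the values of saline 7 had been seen, and of all 19226 genes tested without it, 172 higher and 142 lower genes reached that level. Without psilocybin 5 and 8, 10 of the 22 members were higher and 12 lower, with 1 higher and 1 lower member at that level. In pool A alone 9 were higher and 13 lower, with 4 higher and 2 lower members at that level. In pool B alone 16 were higher and 6 lower, with 1 higher and 0 lower members there.

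Sgk1, a kinase gene that responds to glucocorticoids in oligodendrocytes and neurons, did not follow Fkbp5. It was at 30.9 to 98.4 CPM after psilocybin (median 51.8) and 39.7 to 99.0 CPM after saline (median 58.1). The groups overlapped, with psilocybin 1 and 7 below the saline range. The log2 fold change was -0.32 (SE 0.16), from -0.65 in pool A to -0.012 in pool B, and it was -0.53 without psilocybin 5 and 8. Tsc22d3 and Per1, glucocorticoid targets as well, had log2 fold changes of 0.04 (SE 0.11) and -0.02 (SE 0.12).

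**Figure D3:**
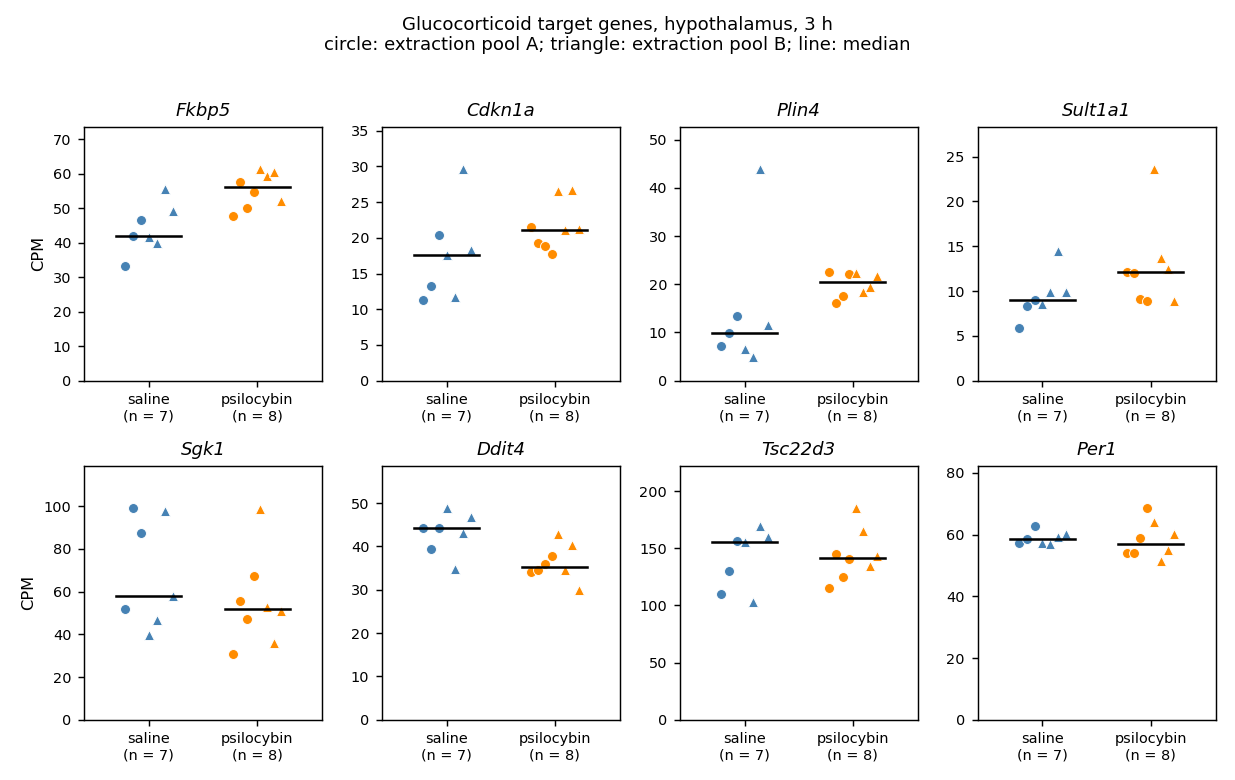
CPM of 8 glucocorticoid target genes in each library, saline in blue (n = 7) and psilocybin in orange (n = 8), with circles for extraction pool A, triangles for pool B and a line at the median. Fkbp5 has medians of 56.2 CPM after psilocybin and 41.9 CPM after saline, and for Plin4 saline 7 lies at 43.9 CPM while the other saline libraries lie at 4.81 to 13.5 CPM.

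Of the 20 listed genes of serotonin receptors and serotonin handling, 17 passed the filter on low counts, and the transporter gene Slc6a4 and the receptor genes Htr2b and Htr3b did not. Of these, 11 were higher and 6 lower (median 0.03), and 1 higher and 2 lower members were at an unadjusted p under 0.05 (1.03% and 0.749% over all genes). There were 0 higher and 1 lower at that level without psilocybin 5 and 8. Htr2a, the receptor through which psilocin chiefly acts, was at 11.1 to 23.6 CPM after psilocybin (median 16.6) and 14.3 to 22.2 CPM after saline (median 18.2). The groups overlapped, and the log2 fold change was -0.15 (SE 0.17, 95% confidence interval -0.49 to 0.19). Htr2c, a receptor of satiety neurons that psilocin also binds, was at medians of 110 and 112 CPM with a log2 fold change of 0.03 (SE 0.26), which became -0.01 without psilocybin 5 and 8. Per kilobase of transcript, the saline median was 11.98 CPM for Htr2c, 4.37 CPM for Htr1a and 3.24 CPM for Htr2a.

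Htr1a, an inhibitory receptor found on neurons that respond to serotonin, had the smallest p of the list. It was at 19.2, 22.7, 18.2, 16.3, 11.6, 14.3, 15.1 and 15.3 CPM in the psilocybin libraries 1 to 8. It was at 20.5, 24.4, 25.4, 19.6, 19.5, 18.5 and 16.3 CPM in the saline libraries 1 and 3 to 8. The psilocybin libraries of pool B, 5 to 8, all lay below the 4 saline libraries of that pool, and in pool A 1 psilocybin library lay within the saline range. The log2 fold change was -0.34 (SE 0.13), -0.30 in pool A and -0.39 in pool B, with an adjusted p of 1 in edgeR. Htr6 was at medians of 1.59 and 2.12 CPM (log2 fold change -0.40, SE 0.18). Htr5b, which is expressed in the habenula, was at 1.71 to 7.32 CPM after psilocybin and 1.12 to 4.02 CPM after saline (log2 fold change 0.77, SE 0.35). Its 2 highest libraries, psilocybin 8 and 5, had the highest sums of the habenula list, and the part of dissection was not tested.

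The peptide genes of feeding had no member past the test. Of 23 listed members 20 were tested, Galp, Nmu and Prlh being too low, and 9 were higher and 11 lower. Of these, 0 were at an unadjusted p under 0.05 (1.78% over all genes), and the median was -0.04. Pomc, the precursor of the satiety peptide alpha-MSH, was at 18.7 to 45.0 CPM after psilocybin (median 32.1) and 23.6 to 45.6 CPM after saline (median 36.0). Its log2 fold change was -0.07 (SE 0.29). The appetite-driving Agrp and Npy, made by the same arcuate neurons, were at 3.53 to 14.6 and 9.04 to 30.2 CPM after psilocybin, with medians of 6.10 and 18.4 CPM. After saline they were at 3.70 to 9.17 and 12.1 to 23.5 CPM, with medians of 5.91 and 20.5 CPM.

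Agrp had a log2 fold change of 0.14 (SE 0.30), which was 0.0005 without psilocybin 7 and 0.24 without psilocybin 8, and Npy one of 0.01 (SE 0.21). For both genes the 2 highest libraries of each treatment were of pool B, and Npy was lowest in psilocybin 3 and 4. Agrp overlaps Ctcf and Ripor1 on the other strand. Cartpt, another satiety peptide, was at 186 CPM in psilocybin 5 and 37.0 to 65.2 CPM in the other psilocybin libraries, with a log2 fold change of 0.33 (SE 0.27). Tac2, the neurokinin B gene, had the smallest p of the list (log2 fold change 0.27, SE 0.21).

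The orexin gene Hcrt and the melanin-concentrating hormone gene Pmch, markers of separate neuron populations of the lateral hypothalamus that act in sleep, waking and feeding, had the widest ratios of highest to lowest psilocybin library among the feeding peptides named here. Hcrt was at 89.9, 12.4, 47.3, 61.6, 8.55, 0.91, 51.5 and 10.4 CPM in the psilocybin libraries 1 to 8. It was at 53.6, 48.1, 32.9, 25.3, 30.8, 25.5 and 51.9 CPM in the saline libraries 1 and 3 to 8. The psilocybin libraries lay on both sides of the saline range, with 4 below it and 2 above it. Pmch followed at 25.0 CPM in psilocybin 6 and 53.8 CPM in psilocybin 5, the rest of the group being at 112 to 236 CPM and the saline group at 96.8 to 197 CPM. The log2 fold changes were -0.34 for Hcrt (SE 0.43) and -0.26 for Pmch (SE 0.26). Without psilocybin 7 that of Hcrt was -0.71 and without psilocybin 6 it was -0.12, and it was 0.28 in pool A alone and -0.96 in pool B alone. Pmch was at -0.41 without psilocybin 1 and -0.10 without psilocybin 6. Pmch overlaps Parpbp on the opposite strand.

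**Figure D4:**
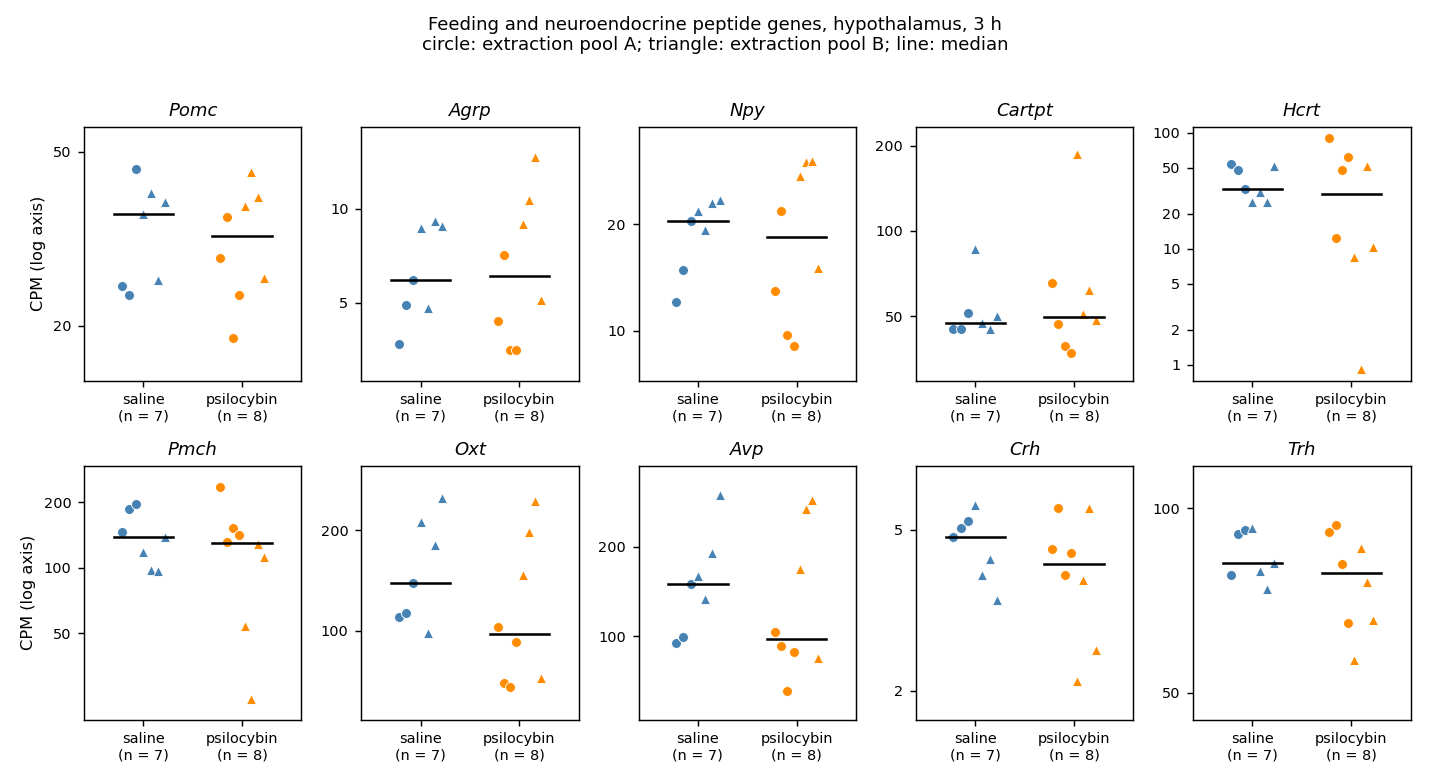
CPM (log axis) of 10 feeding and neuroendocrine peptide genes in each library, saline in blue (n = 7) and psilocybin in orange (n = 8), circles for extraction pool A, triangles for pool B and a line at the median. The groups overlap for every gene, and Hcrt runs from 0.91 to 89.9 CPM within the psilocybin group against 25.3 to 53.6 CPM after saline.

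The 25 receptors of hormones and peptides that control food intake were split, 13 higher and 12 lower, with a median of 0.02. Lepr, Glp1r and Mc4r, the receptors of leptin, GLP-1 and alpha-MSH, had log2 fold changes of 0.07 (SE 0.25), -0.01 (SE 0.30) and -0.18 (SE 0.21). The ghrelin receptor gene Ghsr was at 0.13 (SE 0.27) and the insulin receptor gene Insr at 0.03 (SE 0.094). Cckbr, a cholecystokinin receptor gene, was the single member at an unadjusted p under 0.05 (log2 fold change -0.24, SE 0.11), at medians of 7.53 CPM after psilocybin and 9.24 CPM after saline. Of all genes 0.749% were lower at that level, and without psilocybin 5 and 8 it held 0 members, with Cckbr at -0.19.

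Of 24 genes of the releasing hormones and of the oxytocin and vasopressin systems all but Kiss1, with 0 counts, were tested, and 7 were higher and 16 lower, with a median of -0.14 against -0.0008 over all genes. The median was -0.07 without psilocybin 8, and -0.05 without psilocybin 5 and 8, again with 7 higher and 16 lower. None of the 23 was at an unadjusted p under 0.05 (1.78% of all genes). Oxt, a peptide of the paraventricular and supraoptic nuclei, was at 67.7 to 244 CPM after psilocybin (median 97.6) and 98.4 to 249 CPM after saline (median 139), with a log2 fold change of -0.33 (SE 0.43). Avp, made in the same nuclei, was at 65.5 to 288 CPM (median 98.2) and 94.96 to 299 CPM (median 150), with a log2 fold change of -0.15 (SE 0.39). For both genes psilocybin 6 and 7 were high, and the psilocybin libraries of pool A were among the lowest. Crh, which drives the release of ACTH, was at 2.12 to 5.66 CPM and 3.36 to 5.75 CPM, with a log2 fold change of -0.21 (SE 0.20). Its binding protein gene Crhbp had the smallest p of the list (log2 fold change -0.23, SE 0.14).

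The genes of the 2 main fast transmitters had narrow intervals. All 17 ionotropic glutamate receptor genes had a 95% confidence interval inside a 1.5-fold change, with log2 fold changes from -0.15 (Grik5, a kainate receptor subunit, SE 0.10) to 0.12. Of the 20 genes of GABA synthesis, transport and GABA-A subunits, 16 lay inside that bound, 4 were higher and 16 lower, and the median was -0.04. Slc32a1, the transporter that loads GABA into vesicles, was at 79.2 to 124 CPM after psilocybin (median 100.3) and 104 to 137 CPM after saline (median 129). Of the psilocybin libraries, 4 lay below the saline range. Its log2 fold change was -0.34 (SE 0.12), and -0.26 without psilocybin 5 and 8. The GABA-synthesizing enzyme genes Gad1 and Gad2 had log2 fold changes of -0.18 (SE 0.099) and -0.14 (SE 0.12). Slc32a1 overlaps the antisense gene Gm14205.

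Hypothalamic transcription factors, which mark the identity of its neuron classes, leaned to lower values. Of 25 members, 4 were higher and 21 lower, with a median of -0.18, and 3 lower members, Lhx6 and Dlx1 among them, were at an unadjusted p under 0.05 (0.749% of all genes were lower at that level). Lhx6 and Dlx1 mark GABAergic neurons. Lhx6 was at 6.13 and 6.27 CPM in psilocybin 5 and 8 and 12.2 to 26.2 CPM in the other psilocybin libraries, against 11.1 to 29.2 CPM after saline (log2 fold change -0.66, SE 0.25). Without psilocybin 5 and 8, which also had the highest habenula sums, 5 were higher and 20 lower, with a median of -0.16. In that fit 0 were at an unadjusted p under 0.05. In pool A alone, which lacks both libraries as well, 5 were higher and 20 lower, and 4 lower members were at that level. The part of dissection in these values was not tested.

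The higher genes with the smallest p included genes of the habenula list. Gpr151, an orphan receptor of habenula neurons (chr18:42577881-42579652, minus strand), was at 1.17, 1.62, 8.15, 8.16, 20.8, 2.00, 3.93 and 35.1 CPM in the psilocybin libraries 1 to 8 and at 0.94 to 3.06 CPM after saline. The 4 libraries highest in it, psilocybin 3, 4, 5 and 8, were those whose habenula sum exceeded 90 CPM. That sum was made from genes chosen after such values were seen, so this match is partly built in. Its log2 fold change was 2.54 (SE 0.69), and 1.79 without psilocybin 5 and 8. The 7 habenula genes, a list drawn up after such values were seen, had a median of 1.07, and 0.61 without those libraries, which is a description only. All 11 thalamic markers were higher, with a median of 0.16 and 0 at an unadjusted p under 0.05, and all 10 striatal markers were lower, with a median of -0.33 and 0 at that level. All 6 blood markers were higher, with a median of 0.35 and 0 at that level, and their sums overlapped, at 83.9 to 624 CPM after psilocybin and 129 to 412 CPM after saline. The median of the blood markers was -0.18 in pool A alone, where 5 were tested, and 0.79 in pool B alone. Of the 10 endothelial markers 4 were higher and 6 lower, and all 10 were higher in pool A alone (median 0.51) and lower in pool B alone (median -0.30). The thalamic sums overlapped, at 1128 to 2028 CPM after psilocybin and 1232 to 1999 CPM after saline. The part of neighbouring tissue in these differences was not tested.

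Scube1, a secreted protein gene (chr15:83604999-83725021), was highest in the same 4 libraries as Gpr151, with 52.6, 29.1, 16.2 and 12.9 CPM in psilocybin 8, 5, 3 and 4. The other libraries lay at 5.79 to 8.13 CPM whichever the treatment. Its log2 fold change of 1.28 (SE 0.41) was 0.55 without psilocybin 5 and 8. Ccdc155, at 3.02 CPM in psilocybin 8 and 0.37 to 1.77 CPM elsewhere, had a log2 fold change of 1.10 (SE 0.33), and 0.69 without psilocybin 5 and 8. Spp2, a liver-secreted protein gene, was at 3.24 CPM in psilocybin 5, the library with liver RNA, and at 0.70 CPM or less in all others, and its log2 fold change of 2.64 (SE 0.84) was 0.02 without psilocybin 5 and 8. Gm9924 had at most 3 counts in any library and 0 in all saline libraries. Of the 195 higher genes at an unadjusted p under 0.05, 53 (27.2%) were also so without psilocybin 5 and 8, which is 60.2% of the 88 found there. For the lower genes it was 43 of 142 (30.3%), 47.3% of the 91 found there.

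Among the lower genes with the smallest p, Gm15559, Hnrnpm and Pou3f1 had log2 fold changes of -0.65, -0.21 and -0.56 without psilocybin 5 and 8, close to those with all libraries. Gm15559, a non-coding gene antisense to Pus1 (chr5:110770949-110779260), was at 0.96 to 1.53 CPM after psilocybin and 1.43 to 2.37 CPM after saline (log2 fold change -0.64, SE 0.17), the smallest p of all genes. Hnrnpm, a splicing factor gene (chr17:33646233-33686860), was at 91.3 to 102 CPM after psilocybin and 102 to 115 CPM after saline, overlapping in only 1 library of each group. Its log2 fold change was small, at -0.19 (SE 0.054), and was between -0.21 and -0.18 over the other settings. The POU factor gene Pou3f1 was at medians of 4.12 and 6.17 CPM (log2 fold change -0.58, SE 0.18). The class I histocompatibility gene H2-Q1 was at 0.061 to 0.37 CPM after psilocybin and 0 to 2.81 CPM after saline, with saline 1 and 6 the highest, and belongs to a family of near-identical genes whose reads may be split, so its value is uncertain.

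The remaining lists showed few differences. All 21 circadian clock genes had an interval inside a 1.5-fold change, 13 were higher and 8 lower, and the member with the smallest p was Nr1d1, a repressor within the clock (log2 fold change 0.12, SE 0.074), which overlaps Thra. Of 18 heat shock and cold-inducible genes, 3 were higher and 15 lower (median -0.06). Rbm3, which is induced when tissue cools, was the single one at an unadjusted p under 0.05, at medians of 32.4 and 28.0 CPM (log2 fold change 0.18, SE 0.080). The related cold-inducible gene Cirbp had a log2 fold change of 0.02 (SE 0.10). Over all genes 1.03% were higher at that level, and without psilocybin 5 and 8 the list had 0 members there, with Rbm3 at 0.14. Of 13 thyroid hormone genes, 4 were higher and 9 lower. Dio3, which inactivates thyroid hormone, was at 0.077 to 0.68 CPM after psilocybin and 0 to 1.75 CPM after saline, with its highest value in saline 6 (log2 fold change -1.08, SE 0.44). It was the member at an unadjusted p under 0.05 (0.749% of all genes were lower at that level), and its log2 fold change was -0.56 without saline 6 and -0.73 without psilocybin 5 and 8, when 0 members were at that level. Of 20 dopamine, noradrenaline and histamine genes 17 were tested (Drd4, Slc6a2 and Dbh were too low), and 5 were higher and 12 lower (median -0.08). The alpha-2 adrenergic receptor genes Adra2c (log2 fold change -0.45, SE 0.19) and Adra2a (-0.25, SE 0.12) were the members at an unadjusted p under 0.05 (0.749% of all genes were lower at that level). Without psilocybin 5 and 8, 0 members were at that level and Adra2c was at -0.28.

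**Figure D5:**
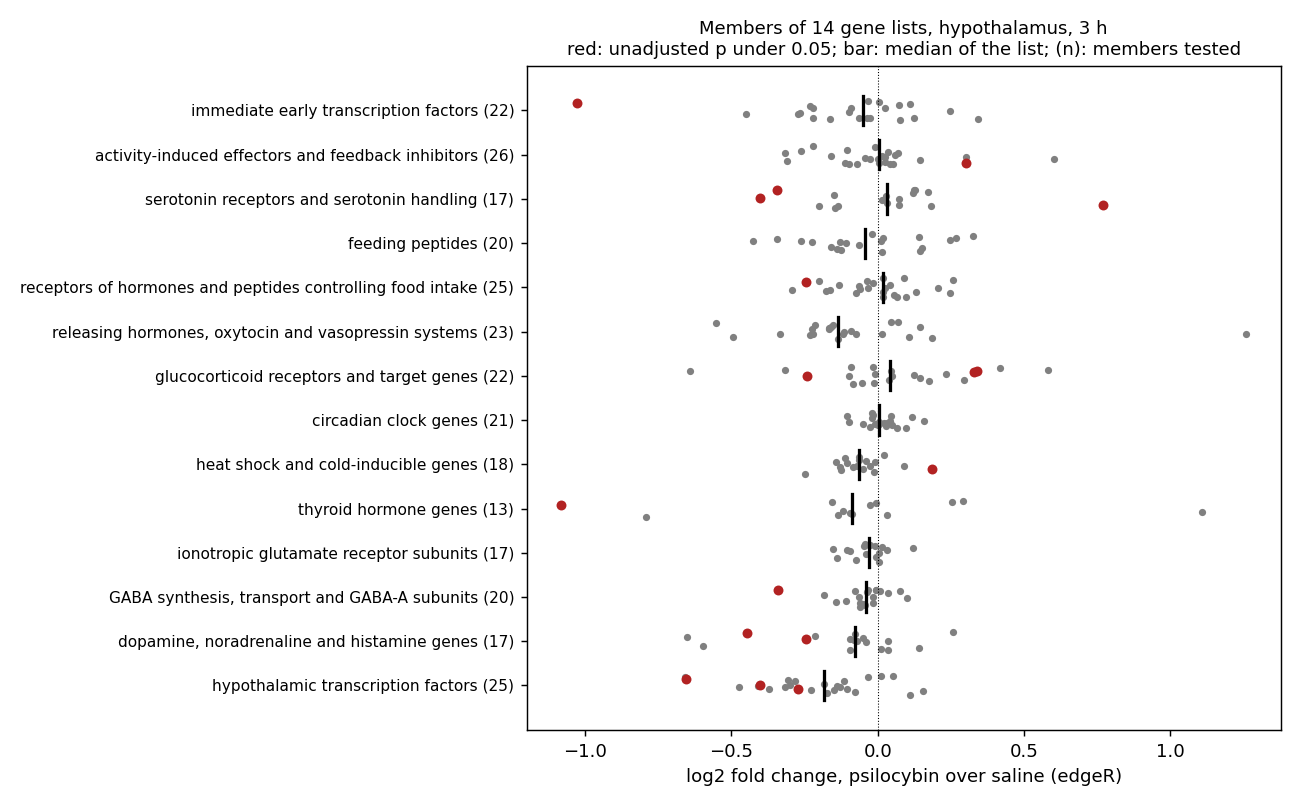
Log2 fold change (psilocybin over saline) of each tested member of 14 gene lists, with red points at an unadjusted p under 0.05, grey points for the rest and a bar at the median of the list. The medians lie between -0.18 for hypothalamic transcription factors and 0.04 for glucocorticoid genes, and clock and glutamate receptor genes stay within 0.16 of 0.

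Whether the response at 3 h differed from that at 4 weeks was tested as a difference of the differences. Of 18971 genes, 0 were called (0%) and 999 (5.27%) were at an unadjusted p under 0.05, and voom and DESeq2 also called 0, with 1143 and 1050. Without psilocybin library 5 of the hypothalamus at 4 weeks, a fit of 61 libraries, 0 were called and 431 of 18890 genes were at an unadjusted p under 0.05, so this library moved the count. Against the PFC at 3 h, edgeR called 0 genes (0%), with 528 (2.78%) at an unadjusted p under 0.05. DESeq2 called 0 with 615, and voom called 4 with 2836. In the PFC at 3 h itself, edgeR called 2 genes between psilocybin and saline and voom called 1228. A count of 0 for the difference in edgeR thus does not show that the regions responded alike.

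Egr4 had a log2 fold change of -1.03 in the hypothalamus at 3 h, 0.39 (SE 0.27) in the hypothalamus at 4 weeks and 0.15 (SE 0.21) in the PFC at 3 h. The difference was -1.42 (SE 0.39) against 4 weeks, with an adjusted p = 0.90 in edgeR, and -1.18 (SE 0.35) against the PFC, with an adjusted p = 1. Egr4, Hnrnpm and Slc32a1 were named for their small p at 3 h, so these differences are a description. Fkbp5 had log2 fold changes of 0.34 in the hypothalamus at 3 h, 0.06 (SE 0.11) at 4 weeks and 0.45 (SE 0.11) in the PFC at 3 h, the last with an adjusted p = 0.17 in edgeR. Its differences were 0.28 (SE 0.16) against 4 weeks and -0.11 (SE 0.15) against the PFC. Hnrnpm differed by -0.27 (SE 0.075) against 4 weeks and Slc32a1 by -0.45 (SE 0.17). Oxt had log2 fold changes of -0.33 at 3 h and 0.94 (SE 0.43) at 4 weeks, a difference of -1.28 (SE 0.61). For all 5 genes the adjusted p of the difference against 4 weeks was 0.90.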

How the data were processed

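RNA-seq counts per gene were deposited as 1 table. The authors used bcl2fastq 2.20.0, aligned reads to GRCm38 with STAR 2.7.2b and counted them with featureCounts 1.6.2 on GENCODE genes, so the values are raw counts. A strand setting of the counting was not stated clearly enough to exclude reads of antisense genes. Libraries of all 8 groups with at least 1000000 counts (62 of 64) entered 1 fit in edgeR 4.0.16 under R 4.3.3, with TMM scaling, filterByExpr (minimum count 10), robust quasi-likelihood tests and terms for group and extraction pool. P-values were adjusted (Benjamini-Hochberg) over 18971 genes. All p-values are two-sided, and those not called adjusted are unadjusted.

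The members of the comparison and all lists were chosen with earlier results of these data known. Named genes were 17 chosen genes, the 5 higher and 5 lower genes of smallest p, and the member of smallest p in each list. The values of 1 of these genes are not reported here. Members given besides illustrate their list and were picked after their values were seen, as were the genes without overlap. Lists were described by counts and medians without a set test. The script was tested on simulated data. Alternatives were DESeq2 1.42.0, voom with limma 3.58.1, other scaling, filters, samples and covariates, and leaving out each library. Replicates are separate mice by their labels. Promoter windows came from RefSeq.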

Additional observations from a re-analysis of the deposited data

Results flagged for a closer look

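A value was singled out where the highest or lowest library lay far from the rest of its group by Dixon's test. Of 109 groups of values tested (39 named genes and 16 marker lists, mostly in both treatments), 11 met this. Chance would give about 1 in 20 among groups chosen without regard to their values. That rate does not hold for the liver and habenula lists or for genes named for a small p. These were chosen with the values seen. Saline 6 held 5 of the 11 and psilocybin 5 held 3.

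In saline 6, Egr4 was at 2.365 CPM (next 1.552) and Dio3 at 1.753 CPM (next 0.6719). In the same library the summed markers were 784.6 CPM for striatum, 282.2 CPM for mural and meningeal cells and 149.5 CPM for choroid plexus. In psilocybin 5, Spp2 was at 3.236 CPM, liver genes summed to 4279 CPM and choroid plexus markers to 241.2 CPM. Pituitary markers summed to 78.0 CPM in psilocybin 2 and 16.7 CPM in saline 4. Nr4a1 was at 19.88 CPM in saline 1, with 13.72 CPM next. Without saline 6 or any other single library, the log2 fold change of Egr4 lay between -1.14 and -0.82.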

How the results depend on the processing

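The count of 0 called genes was the same in all 29 alternatives. The number of genes at an unadjusted p under 0.05, 337 as reported, was 1135 with no filter on low counts, 161 with at least 10 counts in every library, 822 with the 2 groups alone, 775 in extraction pool B alone, 1086 with voom and 179 without psilocybin 5 and 8 (an alternative added after seeing the data). Leaving out each library in turn gave 230 to 430 genes. The difference between hypothalamus and PFC had 4 called genes with voom and 0 in edgeR. The number of genes with an interval inside a 1.5-fold change was 12755 to 12964 when 1 library was left out.

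No named gene was called under any alternative, and 1082 of their values kept their direction while 23 did not. Without psilocybin 5 and 8 the log2 fold change was -0.01226 for Htr2c, -0.1517 for Fos and 0.01945 for Pomc. In pool A alone it was 0.01453 for Nr4a1, -0.1003 for Agrp, -0.2705 for Npy and 0.2759 for Hcrt. In pool B alone it was 0.07493 for Pomc and 0.04732 for Avp. With voom it was -0.07664 for Npy. Leaving out 1 library gave -0.006003 to 0.07046 for Htr2c, -0.1013 to 0.1909 for Fos, -0.151 to 0.1238 for Pomc, -0.09241 to 0.1219 for Npy and -0.05134 to 0.007558 for Per1. It moved some values by over 1.5 times without turning them, over -0.1969 to -0.07975 for Htr2a, -0.3511 to -0.1609 for Egr1, -0.1506 to -0.0326 for Nr4a1, -0.2827 to -0.03033 for Avp, -0.3277 to -0.1151 for Crh, -0.5057 to -0.2015 for Sgk1, 0.1696 to 0.3269 for Tac2, -0.3125 to -0.1369 for Crhbp and 1.137 to 3.482 for Spp2, besides Agrp, Hcrt, Pmch and Dio3 above. The cause was not tested. For genes under 1 CPM the median SE was 0.412, and the parts of depth and of variation between mice in it cannot be told apart here. Without psilocybin 5 and 8 the list median changed sign for activity-induced effectors (-0.05), serotonin genes (-0.0099), feeding peptides (0.03), food intake receptors (-0.04) and glucocorticoid genes (-0.0087). Leaving out 1 library gave list medians of -0.1055 to -0.007276 for feeding peptides, -0.1022 to -0.01533 for heat shock genes, -0.1021 to -0.0256 for thyroid hormone genes, -0.09438 to -0.04014 for dopamine, noradrenaline and histamine genes, -0.0602 to -0.005539 for glutamate receptors, -0.05915 to -0.02282 for GABA genes, -0.2615 to -0.1666 for hypothalamic transcription factors, 0.09069 to 0.2477 for thalamus, -0.4029 to -0.2255 for striatum and 0.1656 to 0.5646 for blood. It turned the sign for effectors (-0.0348 to 0.02168), serotonin genes (-0.003837 to 0.05069), food intake receptors (-0.02801 to 0.02043) and clock genes (-0.004787 to 0.03839).

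Cage numbers are shared by the groups, but they were not taken to pair the libraries. With group means removed, 5 of 7 same-numbered pairs correlated above 0.1, and 0 of 7 did once the pool was removed as well, and 1 of 14 libraries correlated best with its own number. With the cage number as a replicate block, 0 genes were called and Pomc had a log2 fold change of 0.04362. At an unadjusted p under 0.05 that fit had 266 genes, 119 higher and 147 lower.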
